A study of Mus musculus with 8 samples.

Results

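The clustered histone genes are the gene copies that encode the linker histone H1 and the core histones H2A, H2B, H3 and H4 and that lie side by side in the genome. They were taken as the protein-coding genes whose GENCODE M21 symbol begins with Hist1h, Hist2h, Hist3h or Hist4h, which gave 67 of the 55536 genes in the count table. By class there were 6 H1, 18 H2A, 18 H2B, 12 H3 and 13 H4 genes. By cluster, 54 belonged to Hist1 on chromosome 13, 10 to Hist2 on chromosome 3, 2 to Hist3 on chromosome 11 and 1 to Hist4 on chromosome 6. Of the genes with such a symbol, 3 are annotated as pseudogenes and were left out.

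The libraries were made from the frontal cortex of mice aged 8 weeks, 4 from wild type (WT) and 4 from HAR123-KO mice. HAR123 is a conserved element in an intron of Smg6 whose human copy changed quickly in the human lineage, and the HAR123-KO mice carry a CRISPR-Cas9 deletion of the mouse counterpart in every cell of the body. WT mice were littermates, and all mice were on the C57BL/6J background. The comparison of WT with HAR123-KO addresses which genes respond to loss of the element in the adult brain. The labels number the libraries without saying that each came from its own mouse, so p-values measure the spread between these libraries, which may be technical in part. The deleted element is not a gene, and its own signal was not analysed here.

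Replication-dependent histone genes are switched on in S phase, when a dividing cell must package newly made DNA. Their mRNAs are the only known animal mRNAs that end without a poly(A) tail: the transcript is cut just after a conserved stem-loop, which the stem-loop binding protein Slbp holds through processing, translation and decay. The adult cortex consists mostly of cells that no longer divide, and these draw on replacement histones such as H3f3b and H2afz, which are expressed throughout life from ordinary polyadenylated mRNAs. RNA here was depleted of ribosomal RNA and not selected for poly(A), so that histone RNAs with and without tails could both enter the libraries, and the counts do not tell one from the other.

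The stem-loop was searched on the sense strand of the annotated transcripts as GG, any 2 bases, CTTTT, any base, AG, any 2 bases and CC. It was found in 44 of the 67 genes (65.7%), against 34 of 21884 other protein-coding genes (0.155%). Of the 23 genes without it, 11 have a gene model of coding sequence alone, which stops before the stem-loop could appear, and Hist1h4k is among them. The stem differed by class. In H4 genes it was closed by GGCCC in 9 and by GGTCC in 2, whereas all 33 H1, H2A, H2B and H3 genes with the motif had GGCTC. The search pattern itself fixes all but 2 of the 6 base pairs of the stem. Those 2 could form in each of the 44 genes. The stem-loops of 12 genes that the results below turn on are shown in the transcript's sense, with the stem and loop in capitals and up to 5 flanking bases in lower case. Positions are those of the capitals in GRCm38.
Hist1h4h (H4, chr13:23531458-23531473, plus strand): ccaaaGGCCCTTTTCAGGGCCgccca
Hist1h4m (H4, chr13:21812129-21812144, plus strand): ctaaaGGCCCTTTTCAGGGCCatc
Hist1h4d (H4, chr13:23581950-23581965, plus strand): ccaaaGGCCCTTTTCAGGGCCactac
Hist1h4c (H4, chr13:23698089-23698104, minus strand): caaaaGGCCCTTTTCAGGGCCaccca
Hist4h4 (H4, chr6:136803998-136804013, minus strand): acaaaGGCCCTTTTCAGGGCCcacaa
Hist1h4j (H4, chr13:21735437-21735452, plus strand): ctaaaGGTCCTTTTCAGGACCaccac
Hist2h4 (H4, chr3:96262939-96262954, minus strand): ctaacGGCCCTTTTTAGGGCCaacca
Hist1h1e (H1, chr13:23621782-23621797, minus strand): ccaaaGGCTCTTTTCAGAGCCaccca
Hist2h2aa2 (H2A, chr3:96239784-96239799, minus strand): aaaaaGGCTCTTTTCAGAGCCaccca
Hist3h2ba (H2B, chr11:58949349-58949364, plus strand): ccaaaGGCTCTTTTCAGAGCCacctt
Hist1h3d (H3, chr13:23576244-23576259, plus strand): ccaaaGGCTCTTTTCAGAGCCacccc
Hist1h3f (H3, chr13:23544932-23544947, plus strand): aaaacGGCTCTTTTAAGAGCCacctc

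The gene models differ in how far they run past this element. In 21 genes the model ends within 60 bases of the stem-loop, as for Hist1h4m (3 bases) and Hist1h4h (46 bases). In the other 23 it runs further, by 770 bases in Hist1h4d and 2445 bases in Hist4h4. The polyadenylation signal AATAAA lay in the last 40 bases of a transcript of 15 of the 67 genes (22.4%), against 68.2% of other protein-coding genes. Introns are rare, with 62 genes having single-exon models alone and 5 having a spliced model.

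The promoters also differed by class. RefSeq start sites of GRCm38.p6 were matched for 61 genes, and windows of 300 bases (250 before the start and 50 after it) were searched on both strands. CCAAT, the letters bound by the factor NF-Y, occurred in 85.2% of these promoters and in 38.9% of the 17431 other protein-coding promoters. It was in all 49 H1, H2A, H2B and H3 windows but in only 3 of 12 H4 windows (25.0%), those of Hist1h4a, Hist1h4c and Hist1h4d. TATAAA occurred in 57.4% against 13.2%. The octamer ATTTGCAT, bound by Oct1, was in 7 of 17 H2A and 6 of 16 H2B windows and in no H1, H3 or H4 window, with 1.64% elsewhere. AAACACA, known from H1 promoters, was in 5 of 6 H1 windows (83.3%) against 6.10% elsewhere. Many H2A and H2B genes stand head to head, so their windows can overlap and are not independent. A match of letters is a description and not a measured binding site.

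Depth limits what can be said of single histone genes. Library totals ran from 13528251 to 17051001 counts, but Gm42418, which overlaps ribosomal RNA sequence, took 55.1% to 58.1% of them. Nuclear protein-coding genes other than Lars2 held 2786320 to 3732172 counts per library, of which the clustered histone genes held 2555 to 3234, or 0.0831% to 0.101%. Library pairs differed by more than sampling noise, with chi-square per degree of freedom of 1.21 to 1.31 within a genotype and 1.58 to 1.72 between genotypes, and each library was kept as a replicate. Counts below are normalized, that is divided by the DESeq2 size factor of the library.

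Of the 67 genes, 64 had at least 1 count and 50 averaged 10 or more normalized counts over the 8 libraries. The 3 genes at 0 in every library were Hist1h2aa, Hist2h2aa1 and Hist2h3c1. Genes known from the testis were at or near 0: Hist1h2aa (TH2A) had no count, Hist1h1t (H1t) had 3 counts in all, from WT 2 and WT 4, and Hist1h2ba (TH2B) had 2 to 9 counts per library. Genes averaging under 10 normalized counts numbered 17, of which 12 were H2A, 2 H2B, 2 H3 and 1 H1, and Hist1h2ab stood just below that level at 9.60. All 18 H2A genes overlap an annotated gene on the opposite strand, as do 21 of the 67 in all. Among genes with counts, 3 were covered over their whole exon in this way, Hist2h2aa2, Hist2h3b and Hist2h2bb. Whether the overlap has a part in any of these counts was not tested. The other 2 genes at 0 each have a copy that did carry counts. All 100-base windows of Hist2h2aa1 also occur in transcripts of other genes, among them Hist2h2aa2, which had 83 to 130 counts per library. The same holds for Hist2h3c1 and its copy Hist2h3c2, which had 15 to 30. Another gene on the same strand, Gm20634, covers 90.3% of the exon of Hist2h2aa1 and 100% of that of Hist2h3c1. It had 15, 14, 14 and 8 raw counts in WT 1 to 4 and 2, 3, 2 and 3 in HAR123-KO 1 to 4, so the genotypes did not overlap. Its DESeq2 log2 fold change was -2.40 ± 0.59 (SE) with an unadjusted p of 4.72e-05. Its mean lay under the independent filter, so it had no adjusted p there, and it had 0.0114 with the filter off and 0.0060 to 0.762 over the 6 alternatives that gave one. Some windows of Hist2h2aa2 also occur in Gm20634, and the part of this in the values of either gene was not tested. How reads with several matches were counted is not given in the sources used here, so the 0 of these copies does not show that they were silent.

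By the median, H4 genes held the most RNA for their length. Per kb of exon, the median H4 gene had 189.5 normalized counts (mean of 8 libraries), against 35.06 for H2B, 34.11 for H3, 29.92 for H1 and 15.05 for H2A. The highest were Hist1h4h with 391 per kb, Hist1h4k with 366 per kb and Hist1h4m with 317 per kb. H4 levels reached down to 10.9 per kb in Hist4h4, whose model is 2863 bases long, and 38.9 per kb in Hist2h4 (1630 bases). The model of Hist1h4k is coding sequence alone, 312 bases long, so its level per kb is not on the same footing as that of a full transcript. The highest gene outside H4 was Hist2h2aa2, an H2A gene, at 204 per kb, followed by the H2B gene Hist1h2bg at 102 per kb. Of the 100-base windows of Hist1h4h, Hist1h4k and Hist1h4m, 38.5%, 64.3% and 88.1% also occur in transcripts of other genes, as do all of those of Hist2h2aa2. These levels may therefore not belong to each gene alone. The linker histone genes Hist1h1e (H1.4) and Hist1h1c (H1.2) stood at 86.2 and 77.7 per kb. Replacement histones lay in the same range: H2afz (H2A.Z) had 120 per kb, H3f3b (H3.3) 114 per kb and H1f0 (H1.0) 103 per kb, and the median of 11 such genes was 33.5 per kb. As a share of all clustered histone counts, H4 made up 48.8%, H2B 19.4%, H1 13.6%, H3 9.41% and H2A 8.76%.

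**Figure D1:**
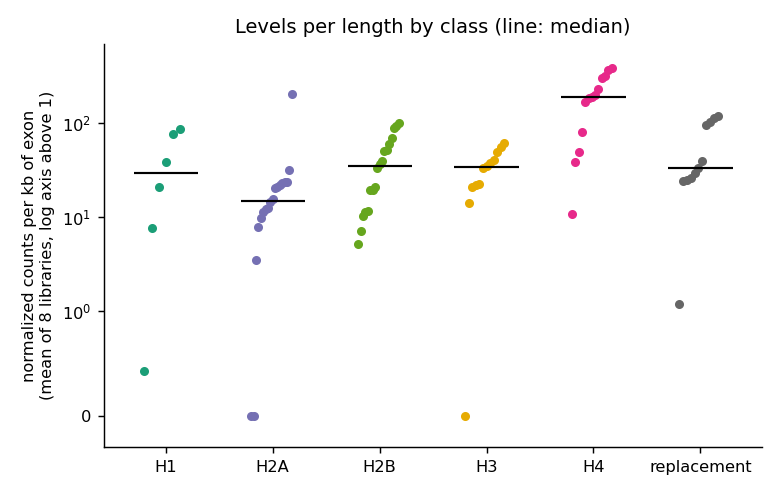
Normalized counts per kb of exon (mean of 8 libraries, axis logarithmic above 1) for each clustered histone gene by class and for 11 replacement histone genes, with the median as a line. The H4 median of 189.5 lies above the medians of the other classes, and H2A spans 0 to 204.

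No clustered histone gene passed the test between the genotypes. Passing meant a log2 fold change beyond 0.5 in either direction with a Benjamini-Hochberg adjusted p under 0.05 in the DESeq2 Wald test, which 38 of 12758 genes with an adjusted p did (0.298%). The count was 0 of the 38 clustered histone genes that had an adjusted p, and it was also 0 in edgeR's quasi-likelihood test (0.503% of all genes) and in limma-voom. With no minimum fold, 0 of the 38 reached an adjusted p under 0.05, where 1.69% of all genes did. The smallest adjusted p was 0.209 in DESeq2 (Hist1h4m), 0.0629 in edgeR (Hist1h4h) and 0.122 in limma-voom. At an unadjusted p under 0.05, DESeq2 gave 6 of the 50 genes averaging 10 or more (12%), against 8.17% of all 14464 genes with that mean. All 6 were lower in HAR123-KO, a direction in which 3.98% of all genes had such a p. edgeR gave 7 of 51 (13.7% against 12.8% of all genes) and limma-voom 8 of 51 (12.7% of all genes). The DESeq2 count moved with single libraries: it was 3 without WT 1, 1 without WT 2, 3 without WT 4 and 2 without HAR123-KO 2. Over all libraries left out in turn it ran from 1 to 8.

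Fold changes of the 50 genes were small and mostly below 0. They were below 0 in 34 genes and above 0 in 16, so that 68.0% were lower in HAR123-KO, where 50.4% of all genes and 50.1% of protein-coding genes with that mean were. The median log2 fold change was -0.10, against -0.001 over all genes, and it was -0.04 without WT 1, -0.05 without HAR123-KO 3 and -0.15 without HAR123-KO 4. The ranges of the genotypes, each over 4 libraries, did not overlap in 5 of 50 genes, where 7.21% of all genes had ranges apart in either direction. In all 5 HAR123-KO was lower, as in 3.44% of all genes. The median standard error of these fold changes was 0.24 on the log2 scale, so for a typical member a difference of the size of the median was not detectable at this depth. Neighbouring genes and copies share sequence, so the 50 values are not independent of each other.

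**Figure D2:**
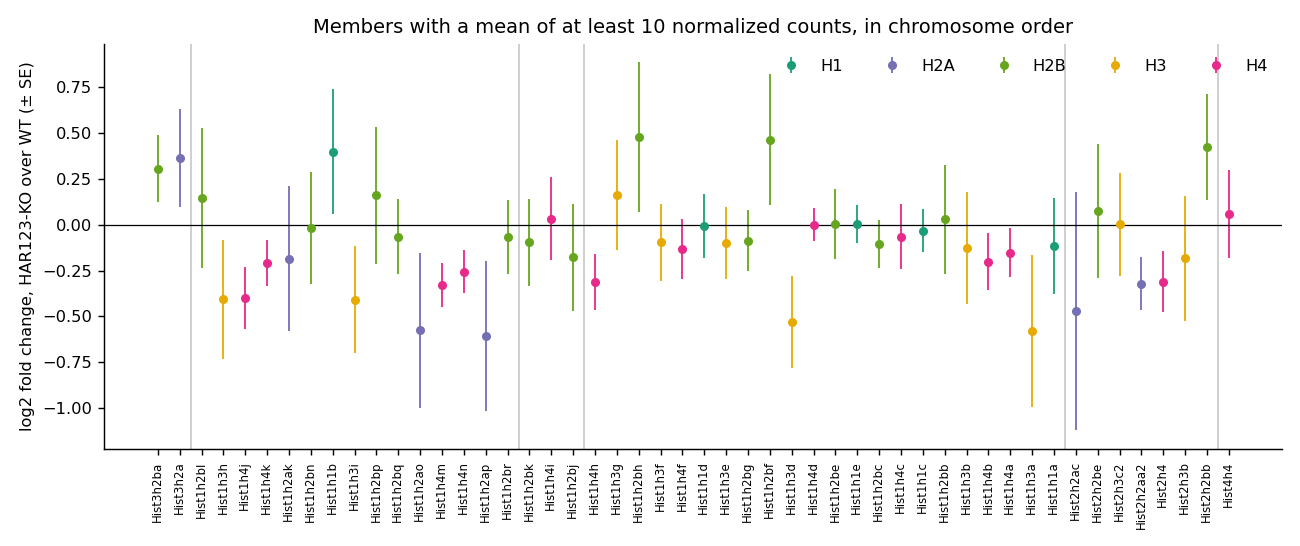
Log2 fold change of HAR123-KO over WT (DESeq2, ± SE) of the 50 clustered histone genes that averaged 10 or more normalized counts, in order along chromosomes 11, 13, 3 and 6, with colours for the class and vertical lines where genes lie over 100 kb apart or on another chromosome. Values run from -0.61 to 0.48, and H4 points lie at or below 0 in most places.

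H4 genes made up 4 of the 6 with an unadjusted p under 0.05, or 30.8% of 13 H4 genes where 3.98% of all genes were lower with such a p. Among these 4 are the near-identical copies Hist1h4m and Hist1h4n, which share most of their sequence. H4 genes encode the core histone that pairs with H3. Of 13 H4 genes, 11 had a log2 fold change below 0 and 2 above it, with a median of -0.20 and a range from -0.40 to 0.06, and none passed the test. Without WT 2 the median was -0.11. Without H4, 23 of the remaining 37 genes were below 0 (62.2%), with a median of -0.07.

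Hist1h4m (chr13:21811746-21812147, plus strand) had 147.5, 162.7, 129.6 and 127.3 normalized counts in WT 1 to 4 and 121.8, 96.04, 110.9 and 123.4 in HAR123-KO 1 to 4. Every HAR123-KO library lay below every WT library. Its log2 fold change was -0.33 ± 0.12 (SE), with a DESeq2 p of 0.00636 and an adjusted p of 0.209. Hist1h4n (chr13:21831767-21832196, minus strand), a close copy of Hist1h4m, had 141.9, 161.6, 132.2 and 132.7 in WT and 124.9, 105.5, 118.0 and 127.6 in HAR123-KO. These ranges did not overlap either, with a log2 fold change of -0.26 ± 0.12 (SE) and a DESeq2 adjusted p of 0.444. The pair is not a pair of independent measurements. The raw counts of the copies never differed by more than 10 in a library, and 88.1% of the 100-base windows of Hist1h4m occur in a transcript of another gene.

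Hist1h4j (chr13:21735064-21735837, plus strand) had 60.79, 82.36, 61.01 and 79.16 normalized counts for WT and 49.15, 52.30, 58.11 and 54.24 for HAR123-KO. The highest HAR123-KO library lay just under the lowest WT library, and the log2 fold change was -0.40 ± 0.17 (SE; adjusted p in DESeq2 0.379). Hist1h4h (chr13:23531050-23531519, plus strand), the highest member per kb, had 198.1, 243.0, 181.3 and 192.6 in WT and 138.2, 142.6, 178.7 and 195.7 in HAR123-KO. Here HAR123-KO 1 and 2 were low and HAR123-KO 4 lay within the WT range. The log2 fold change was -0.31 ± 0.15 (SE), with an adjusted p of 0.519 in DESeq2 and 0.0629 in edgeR. Hist2h4 (chr3:96261682-96263311, minus strand), named here after its values were seen, had 67.55, 66.92, 66.94 and 80.23 in WT and 45.05, 59.90, 63.39 and 57.43 in HAR123-KO. Its ranges did not overlap, its log2 fold change was -0.31 ± 0.17 (SE; adjusted p in DESeq2 0.603), and it shares no 100-base window with another gene.

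Of the 3 H4 genes with the most counts, Hist1h4h is given above, and the fold changes of Hist1h4d and Hist1h4c were nearer 0. Hist1h4d had 202.6, 236.8, 214.4 and 209.7 normalized counts for WT and 206.8, 236.8, 212.2 and 206.3 for HAR123-KO, which gave a log2 fold change of -0.002 ± 0.09 (SE) with a 95% interval from -0.18 to 0.17. Hist1h4d also shares no window with another gene. Hist1h4c ranged from 155.9 to 232.7 in WT and from 154.6 to 229.7 in HAR123-KO, with a log2 fold change of -0.07 ± 0.18 (SE). Hist1h4k, Hist1h4a and Hist1h4b had log2 fold changes of -0.21 ± 0.13, -0.15 ± 0.13 and -0.20 ± 0.16 (SE), with overlapping ranges. With 1 library left out, Hist1h4k was at -0.13 (without WT 2), Hist1h4a at -0.08 (without WT 4) or -0.10 (without HAR123-KO 3), and Hist1h4b at -0.07 (without WT 2), -0.13 (without WT 4) or -0.32 (without WT 3). Hist4h4, the only gene of its cluster, had 30.5 ± 3.46 normalized counts for WT and 31.8 ± 7.51 for HAR123-KO (SD, n = 4).

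**Figure D3:**
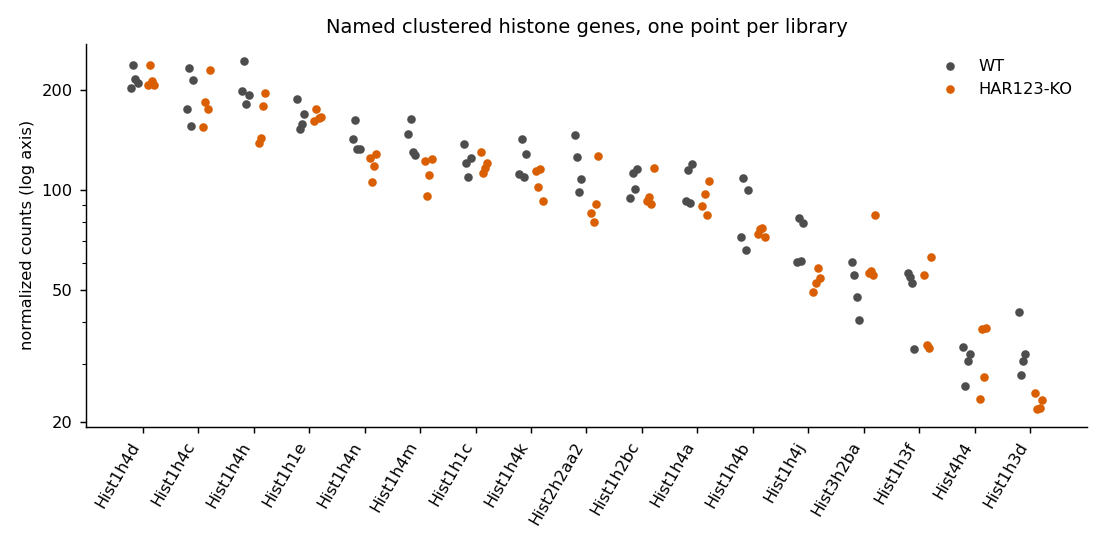
Normalized counts (log axis) of 17 clustered histone genes in each of 4 WT and 4 HAR123-KO libraries, 1 point per library. Points of the genotypes separate for Hist1h4m, Hist1h4n, Hist1h4j and Hist1h3d and overlap in the other 13 genes.

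Both linker histone genes with the most counts had fold changes near 0. Hist1h1e had 186.9, 152.4, 157.6 and 169.0 normalized counts for WT and 160.7, 175.0, 164.6 and 164.8 for HAR123-KO, and its log2 fold change was 0.004 ± 0.10 (SE) with a 95% interval from -0.20 to 0.20. Hist1h1c had 122.8 ± 11.6 for WT and 119.7 ± 7.64 for HAR123-KO (SD, n = 4), with a 95% interval of the log2 fold change from -0.27 to 0.20. Of the 5 H1 genes averaging 10 or more, 3 were below 0 and 2 above, with a median of -0.01 that ran from -0.06 (without WT 3) to 0.06 (without WT 1). Most H1 genes share little sequence, with a median of 0.396% of windows found elsewhere. Hist1h1e, which made up 42.7% of the H1 counts, had 24.7% of its windows in other genes.

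Among H2A genes, 6 of 18 reached a mean of 10, the fewest of any class by share. Hist2h2aa2 (chr3:96239749-96240276, minus strand) had 146.4, 125.6, 98.29 and 108.0 normalized counts for WT and 84.98, 79.87, 90.68 and 126.6 for HAR123-KO. HAR123-KO 1 to 3 lay below every WT library, and HAR123-KO 4 lay above 3 of the 4. The log2 fold change was -0.32 ± 0.14 (SE; adjusted p in DESeq2 0.422), and -0.21 without WT 1. Its counts cannot be assigned to it alone, since all of its 100-base windows occur in transcripts of other genes and its exon is covered by a gene on the opposite strand. The median over the 6 H2A genes was -0.40, with 5 below 0, but their median standard error was 0.40 and the median was -0.22 without HAR123-KO 1.

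H2B genes, which encode the partner of H2A in the nucleosome, went as often one way as the other. Of 16 averaging 10 or more, 7 were below 0 and 9 above, with a median of 0.02 that ran from -0.08 (without HAR123-KO 4) to 0.09 (without WT 1) and changed sign without HAR123-KO 4 or WT 3. Hist1h2bc, the H2B gene with the most counts, had 94.57, 112.2, 100.8 and 115.5 in WT and 92.15, 95.09, 90.68 and 115.9 in HAR123-KO (log2 fold change -0.11 ± 0.13, SE). That value was -0.06 without WT 4, -0.07 without HAR123-KO 3 and -0.19 without HAR123-KO 4. Its gene spans chr13:23684199-23692908, and it is among the genes with no stem-loop in a transcript. Hist3h2ba had 60.79, 55.59, 47.45 and 40.65 in WT and 56.31, 57.05, 55.47 and 84.02 in HAR123-KO. HAR123-KO 4 stood apart, and the log2 fold change of 0.30 ± 0.18 (SE; adjusted p in DESeq2 0.688) was 0.14 without it.

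Of 10 H3 genes averaging 10 or more, 8 were below 0 and 2 above, with a median of -0.16, or -0.31 without WT 4 and -0.25 without HAR123-KO 4. Hist1h3d (chr13:23575763-23577011, plus strand) had 42.78, 27.80, 30.50 and 32.09 normalized counts for WT and 24.57, 21.87, 22.01 and 23.40 for HAR123-KO. The ranges did not overlap, and the log2 fold change of -0.53 ± 0.25 (SE; adjusted p in DESeq2 0.482) was the largest in size among the 6 genes with an unadjusted p under 0.05. Hist1h3f, the H3 gene with the most counts, had 56.29, 54.56, 52.53 and 33.16 in WT and 55.29, 34.23, 33.46 and 62.75 in HAR123-KO. Both genotypes held libraries near 33 and libraries above 50 for this gene, and its log2 fold change was -0.10 ± 0.21 (SE).

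Pooling the members gives sums with less counting error. Pools were made of all members of a class or cluster, and as sums over chosen genes they carry no p. All 67 genes together had 3057, 3178, 2740 and 2970 normalized counts for WT and 2616, 2664, 2682 and 3037 for HAR123-KO. HAR123-KO 1 to 3 lay below every WT library and HAR123-KO 4 lay above 2 of the 4. The means were 2986 ± 185 and 2750 ± 194 (SD, n = 4), a log2 ratio of -0.12 with a standard deviation between libraries of a genotype of 0.095.

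The H4 pool was 1402, 1703, 1333 and 1515 in WT and 1244, 1291, 1319 and 1395 in HAR123-KO. The ranges overlapped by the libraries WT 3 and HAR123-KO 4 alone, and the log2 ratio was -0.18 against a within-genotype SD of 0.12. Without WT 2, the library with the highest H4 pool, it was -0.11. Over the H4 genes with at least 90% of their 100-base windows in no other gene, Hist1h4d, Hist2h4 and Hist4h4, it was -0.06, and over the H2B genes of that kind the ratio was 0.24. No values with 1 library left out are given for these ratios. The H2B genes of that kind include Hist3h2ba, which had 84.02 normalized counts in HAR123-KO 4 and 55.47 to 57.05 in HAR123-KO 1 to 3. The H1 pool was 390.7 ± 27.3 and 388.0 ± 13.1 (SD, n = 4), a log2 ratio of -0.01, and the H2B pool 553.1 ± 44.0 and 561.3 ± 51.1, a log2 ratio of 0.02. Both of these ratios changed sign with 1 library left out, H1 without WT 1 (0.03) or HAR123-KO 3 (0.01) and H2B without WT 3 (-0.02) or HAR123-KO 4 (-0.04). For H2A and H3 the log2 ratios of -0.18 and -0.19 were smaller than their within-genotype SDs of 0.26 and 0.27. The H2A ratio was -0.12 without WT 1, -0.05 without HAR123-KO 1 and -0.30 without HAR123-KO 4. The H3 ratio was -0.10 without WT 1 and also without HAR123-KO 2, and -0.34 without HAR123-KO 4.

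**Figure D4:**
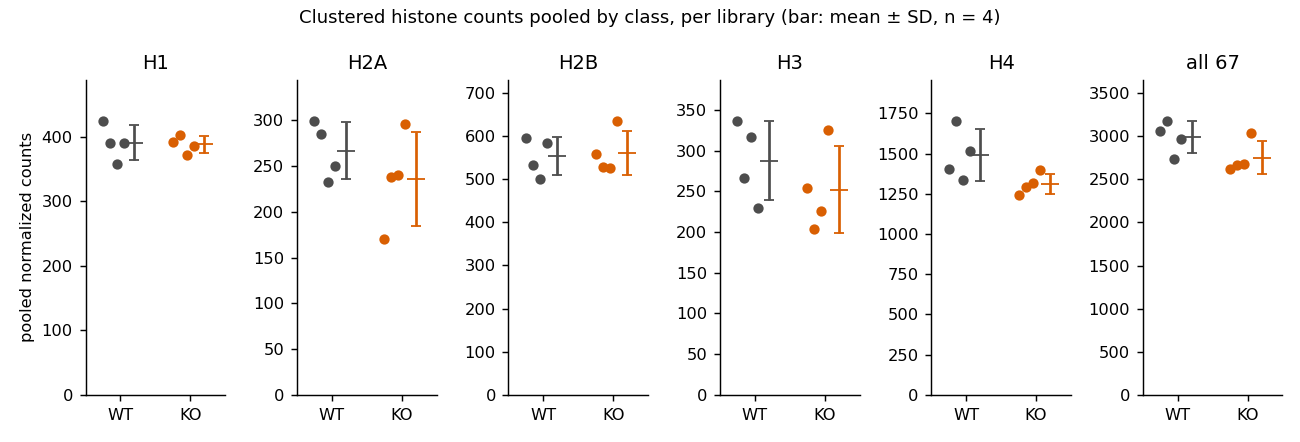
Pooled normalized counts of the clustered histone genes by class and for all 67 genes, 1 point per library, with mean ± SD (n = 4) beside them and axes starting at 0. In the H4 panel the WT libraries run from 1333 to 1703 and the HAR123-KO libraries from 1244 to 1395, and in the panel of all genes HAR123-KO 4 (3037) stands above the other HAR123-KO libraries.

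By cluster, the Hist1 pool was 2603 ± 174 in WT and 2384 ± 138 in HAR123-KO, a log2 ratio of -0.13 that was -0.01 over its genes with little shared sequence, and the Hist2 pool 280.0 ± 19.1 and 242.9 ± 41.6, a log2 ratio of -0.21 (SD, n = 4). Both overlapped, and the Hist2 ratio was -0.11 without HAR123-KO 1 and -0.31 without HAR123-KO 4. The Hist3 pool of an H2A and an H2B gene went the other way, with 76.56, 74.13, 72.02 and 67.40 in WT and 80.88, 81.77, 87.16 and 113.8 in HAR123-KO. Every HAR123-KO library was above every WT library, although neither gene passed the test, and the log2 ratio of 0.33 was 0.20 without HAR123-KO 4. Within Hist1, genes lie in 4 physical groups more than 100 kb apart. The group of 18 at chr13:21715763-21837530, which holds Hist1h4j, Hist1h4k, Hist1h4m and Hist1h4n, had a log2 ratio of -0.23 (735.0 ± 59.4 and 628.3 ± 44.0, SD, n = 4). The group of 29 at chr13:23531050-23764406, which holds Hist1h4d, Hist1h4h, Hist1h1e and Hist1h1c, had a log2 ratio of -0.09 (1752 ± 104 and 1646 ± 89.9), or -0.06 without WT 2. The difference between the groups was not tested.

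The pools were also split by the features that the choice of members did not use. Genes whose model ends within 60 bases of the stem-loop had a pooled log2 ratio of -0.25 (973.6 ± 87.2 in WT, 820.9 ± 75.4 in HAR123-KO, SD, n = 4). Genes whose model runs further had -0.05 (1343 ± 74.4 and 1302 ± 80.4), and genes without the motif had -0.09 (669.6 ± 28.8 and 627.2 ± 54.5). The first set holds Hist1h4h, Hist1h4m and Hist2h2aa2, and the second Hist1h4d, Hist1h1e and Hist1h1c, so the split is also one by gene. With 1 library left out, the ratio of the second set ran from -0.09 (without HAR123-KO 4) to -0.01 (without HAR123-KO 1), and that of the genes without the motif was -0.05 without HAR123-KO 3 and -0.15 without HAR123-KO 4. With AATAAA near the end of a transcript, 6 of 12 genes averaging 10 or more were below 0, and without it 28 of 38 were.

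Shared sequence moved with the fold change. For each gene, the share of 100-base windows of its transcripts that also occur in an annotated transcript of another gene was counted, genes overlapping it on either strand included. It was 0 in 6 of the 67 genes, at most 10% in 13 and over 50% in 28. Among genes averaging 10 or more, 5 of 10 were below 0 where at most 10% of windows were shared, 14 of 22 where 10% to 50% were, and 15 of 18 where over 50% were. The medians of the log2 fold changes were 0.03, -0.10 and -0.19 in that order. These sets also differed in class, and the genes with at most 10% of windows shared included no H2A or H3 gene. Over all members, the median share was 0.396% for H1, 19.0% for H4, 36.4% for H2B, 49.7% for H3 and 69.9% for H2A. Class and shared sequence therefore cannot be told apart across these sets. With 1 library left out, the 3 medians of the log2 fold changes ran from -0.02 (without HAR123-KO 2) to 0.11 (without HAR123-KO 1), from -0.19 (without HAR123-KO 4) to -0.04 (without HAR123-KO 2) and from -0.23 to -0.16. Spearman's rho between the share and the fold change was -0.33 over the 50 genes, -0.55 over the 13 H4 genes and -0.30 over the other 37, as a description over genes that share reads, libraries and gene copies. The log2 ratio of the pool of genes with at least 90% of their windows in no other gene was -0.01, against -0.12 for all 67 genes. No values with 1 library left out are given for the former, so its sign is not read. Whether the shared reads have a part in the lower values of the other genes was not tested.

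**Figure D5:**
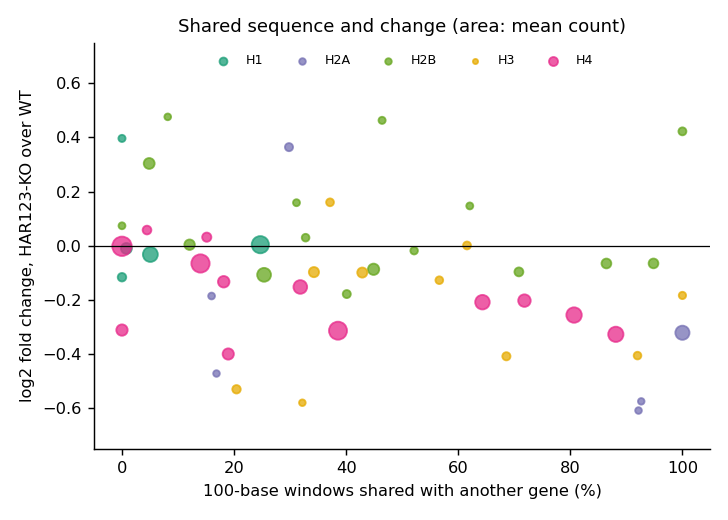
Log2 fold change of HAR123-KO over WT against the share of 100-base windows found in another gene's transcript, for 50 clustered histone genes coloured by class, with the area of a point growing with the mean normalized count. Below 10% of shared windows the points lie on both sides of 0, and above 50% 15 of 18 lie below it.

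The library composition moved with the pooled level as well. The 3 libraries in which Gm42418 took the smallest share of counts, HAR123-KO 1 to 3 with 55.1% to 55.7%, gave 0.0831% to 0.0851% of their nuclear protein-coding counts to clustered histone genes. The other 5 libraries, HAR123-KO 4 included, had 56.8% to 58.1% of Gm42418 and 0.0867% to 0.101% of clustered histone counts. HAR123-KO 4 alone had 57.4% and 0.0965%, both within the WT range. The part of this in the lower pools was not tested.

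Markers of cell types differed between the genotypes too. The summed normalized counts of 8 choroid plexus markers were 183.5 to 211.8 in WT and 815.7 to 859.6 in HAR123-KO, with 2 genes past the threshold, and those of 8 striatal projection neuron markers were 2760 to 2897 and 3877 to 3991, with 3 past it. Sums of 8 oligodendrocyte (15160 to 15670 in WT, 17260 to 17570 in HAR123-KO) and 6 oligodendrocyte precursor markers (767.0 to 780.9, 797.6 to 901.4) were higher in every HAR123-KO library. Sums of 9 cortical excitatory neuron (6873 to 7102, 6390 to 6672), 8 astrocyte (23190 to 23920, 21580 to 22190), 8 endothelial (458.9 to 489.7, 363.5 to 383.9) and 5 red blood cell markers (1523 to 1681, 1238 to 1302) were lower in every one. Of these markers 1 was past the threshold, the endothelial gene Vwf, with 91.8 ± 4.96 and 49.4 ± 9.70 normalized counts (SD, n = 4). Single genes weigh heavily in these sums: Slc1a2 made up 79.9% of the astrocyte sum and Slc17a7 51.4% of the cortical excitatory sum, and ranges lay apart with HAR123-KO lower for 3 of 8 and 2 of 9 of those markers, where 3.44% of all genes had this. The cortical marker Foxp2 lay apart with HAR123-KO higher, and the astrocyte marker Gfap, whose ranges overlapped, had a log2 fold change of 0.16 (adjusted p in DESeq2 0.558). Mbp made up 42.5% of the oligodendrocyte sum, and Mobp of that list had a log2 fold change of -0.03. Among the precursor markers, Gpr17 (-0.01) and Olig2 (-0.04) were below 0, and the smallest adjusted p in DESeq2 was 0.376. Taken over the libraries of both genotypes together, Ttr made up 68.3% of the choroid plexus sum, which is not its share within either genotype. The sums of 8 neuron, 8 microglia and 6 neuroblast markers overlapped, and no marker was at 0 in all libraries. Detection alone therefore does not tell the labelled tissue from others. In bulk RNA, fewer cells of a type and less RNA per cell cannot be told apart, and the part of cell makeup in the histone values was not tested.

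Genes that make, carry or replace the clustered histones did not pass the test in DESeq2, edgeR or limma-voom. Of 11 replacement histone genes, 10 had a DESeq2 adjusted p, 0 passed and 0 had an unadjusted DESeq2 p under 0.05 (smallest adjusted p = 0.598). That smallest value was for H2afy, with 169.0 to 192.3 normalized counts in WT and 146.4 to 166.4 in HAR123-KO. Its ranges did not overlap, as in 3.44% of all genes with HAR123-KO lower, and its log2 fold change was -0.19 ± 0.10 (SE). Its unadjusted p was 0.024 in edgeR, where 12.8% of all genes had one under 0.05. H3f3b had 328.4 ± 16.3 normalized counts for WT and 349.1 ± 8.11 for HAR123-KO (SD, n = 4), H2afz had 208.5 ± 9.79 and 217.3 ± 10.2, and H1f0 had 216.7 ± 12.6 and 204.7 ± 13.5. Their log2 fold changes moved by over 1.5 times without 1 library for H2afz and H1f0, from 0.06 for H2afz to 0.04 (without WT 2) or 0.03 (without HAR123-KO 4) and from -0.08 for H1f0 to -0.05 (without WT 4) or -0.12 (without HAR123-KO 1). These 3 genes had narrower errors than most clustered histone genes, with 95% intervals of the log2 fold change from -0.05 to 0.23, from -0.12 to 0.23 and from -0.26 to 0.10.

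Of 20 measured genes for histone mRNA processing and decay, 17 had an adjusted p, 0 passed and 0 had an unadjusted DESeq2 p under 0.05 (smallest DESeq2 adjusted p = 0.611). Slbp, which binds the stem-loop, had 48.2 ± 3.03 normalized counts for WT and 51.4 ± 6.91 for HAR123-KO (SD, n = 4), for a log2 fold change of 0.08 ± 0.19 (SE) that ran from 0.02 (without HAR123-KO 4) to 0.17 (without HAR123-KO 3), with 0.12 without WT 2 and 0.05 without HAR123-KO 1. Npat, the coactivator of histone transcription in S phase, had 145.7 ± 8.33 and 147.1 ± 7.04, for a log2 fold change of 0.01 ± 0.11 (SE). The ranges of Tut4 did not overlap, as in 7.21% of all genes in either direction. It had 207.6 to 219.3 normalized counts in WT and 222.7 to 234.9 in HAR123-KO, for a log2 fold change of 0.10 ± 0.09 (SE). Of 14 histone chaperone genes, 12 had an adjusted p, 0 passed and 1 had an unadjusted p under 0.05, where 8.17% of all genes averaging 10 or more did (smallest DESeq2 adjusted p = 0.457). It was Atrx, a partner of Daxx in placing H3.3, with a log2 fold change of 0.09 and 1169 to 1245 normalized counts in WT against 1246 to 1315 in HAR123-KO, so that the ranges barely lay apart.

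Of 23 genes for DNA replication and the cell cycle, 12 averaged 10 or more and only 9 had a DESeq2 adjusted p, so that the other 14 could not pass. None of the 9 passed, and 0 of the 23 had an unadjusted p under 0.05. Mki67, a marker of dividing cells, had 33.77, 36.03, 32.20 and 25.67 normalized counts for WT and 34.81, 28.53, 34.34 and 24.46 for HAR123-KO. The lowest library of each genotype was replicate 4, and the log2 fold change was -0.06 ± 0.23 (SE). Top2a, the topoisomerase of dividing cells, had 13.1 ± 3.23 and 18.2 ± 3.33 (SD, n = 4), for a log2 fold change of 0.48 ± 0.34 (SE) with too few counts for an adjusted p. Rrm2, which averaged only 7.26, went the other way, with 7.21 to 13.5 normalized counts in WT and 3.07 to 6.66 in HAR123-KO. Its ranges did not overlap, and its log2 fold change was -0.98 ± 0.51 (SE), also without an adjusted p. Per kb of exon, Mki67 stood at 3.10 normalized counts and Slbp at 8.20, below the median of each histone class.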

How the data were processed

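Raw read counts per gene were deposited by the authors, who aligned paired-end reads of ribosome-depleted, directional libraries with STAR 2.5.2b to GRCm38 (Ensembl 96) and summed exons with featureCounts. How strand and multiply matching reads were counted is not given in the sources used here. All 55536 identifiers matched GENCODE M21, and every value column was a library's count. DESeq2 1.42.0 (R 4.3.3; median-of-ratios factors, genotype only, independent filter tuned to 0.1) was fitted to all genes of 4 WT and 4 HAR123-KO libraries. edgeR 4.0.16 and limma-voom (limma 3.58.1) were alternatives, and all were tested on simulated data. Members below a mean of 10 normalized counts are given as levels. Named with values were the 12 members with the most counts, the highest of each class and cluster, those with an unadjusted p under 0.05, and 7 pathway genes. Hist2h4, Hist1h2bg, Hist1h2ab, Atrx, H2afy, Tut4, Rrm2, Gfap, Mobp, Gpr17, Olig2 and genes at or near 0 or wholly covered were added after their values were seen. Members and lists were chosen with earlier results of these data known. Other alternatives were size factors, filters, thresholds, the replicate block, leaving out each library, and, chosen after seeing the data, genes with little shared sequence and 1 of each near-identical pair. No molecular identifiers were used, so PCR copies are counted. Symplk had no row.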

Additional observations from a re-analysis of the deposited data

Results flagged for a closer look

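In 4 of 68 groups of 4 libraries examined for the pools and named genes, 1 library lay far from the other 3 by Dixon's criterion at the 95% level, where chance gives 1 in 20, or 3.4 groups. HAR123-KO 4 accounts for 3 of them. Its pool of all clustered histone genes was 3037 normalized counts, while HAR123-KO 1 to 3 held 2616 to 2682, and its Hist1 pool was 2592, against 2312 to 2317. Without HAR123-KO 4 the log2 ratios of HAR123-KO over WT were -0.17 for both pools. The Hist1 pool held 87% of the counts of all clustered histone genes, so these pools are not independent. Other groups among the 68 also share genes. Hist3h2ba had 84.02 normalized counts in HAR123-KO 4 and 55.47 to 57.05 in the others. In WT 4, Hist1h3f had 33.16 normalized counts, against 52.53 to 56.29 in WT 1 to 3, and the log2 fold change of Hist1h3f was -0.24 without that library.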

How the results depend on the processing

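No clustered histone gene and no gene of the 4 pathway lists passed the threshold under any alternative that was run. Over all genes, 38 passed with DESeq2, 73 with edgeR, 3 at an adjusted p under 0.01 with a log2 fold change over 1, 215 with no minimum fold change and 9 with the replicate block, and 11 to 44 with 1 library left out (18 without WT 3, 11 without HAR123-KO 4). Clustered histone genes with an unadjusted p under 0.05 numbered 6 in DESeq2, 0 with the replicate block, and 1 to 8 with 1 library left out. Replicate numbers did not pair the libraries: correlations of same-numbered deviations ran from -0.0274 to 0.0289, and 1 of 4 numbers correlated best with itself. Of 78 values of pools under alternatives, 74 moved by less than the spread between libraries. The other 4 came from genes with at least 90% of windows in no other gene, with log2 ratios of -0.00519 for all genes, 0.244 for H2B, -0.0607 for H4 and -0.00682 for Hist1. Hist1h4d and Hist1h1c changed sign with library totals as size factors, to 0.0364 and 0.00719. With 1 library left out, log2 fold changes ran from -0.0500 to 0.0447 for Hist1h4d, -0.179 to 0.0340 for Hist1h4c, -0.0344 to 0.0608 for Hist1h1e, -0.0893 to 0.0235 for Hist1h1c, -0.274 to 0.0371 for Hist1h3f, -0.0423 to 0.174 for Hist4h4, -0.0257 to 0.0440 for Npat and -0.149 to 0.0271 for Mki67, none of them past the threshold. The cause of these shifts was not tested. A search for shared sequence over the whole genome was not run, and annotated transcripts were searched in its place. Of 67 members, 29 had no DESeq2 adjusted p.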
